A study of Mus musculus with 15 samples.

Results

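The comparison described here sets common dendritic cell progenitors (CDP) against granulocyte-macrophage progenitors (GMP), both sorted from mouse bone marrow. Its members were the 2 arrays titled CDP and the 2 titled GMP, 4 of the 15 arrays in the series, and every probe set that carries 1 gene symbol was used. All 4 arrays came from wild-type C57Bl/6 mice at steady state, with no treatment. Bones were crushed, cells were taken over a density gradient, red cells were lysed, and the populations were sorted. Per the labels, both populations were negative for a dead-cell dye, IL7R, MHC class II and CD11c. GMP were CD117 high, CD16/32 positive and CD135 negative. CDP were CD117 intermediate, CD16/32 negative, CD135 positive and negative for lineage markers, which the description of the GMP gate does not list. Common myeloid progenitors (CMP: CD117 high, CD135 positive, CD16/32 negative) and bone marrow precursors of classical dendritic cells (pre-cDC: CD117 low, CD135 positive, CD11c positive), from wild-type mice as well, had 2 arrays each. They entered the same fit, and their values are given beside those of CDP and GMP as a description. The labels number the wild-type arrays but do not say that the arrays of a group came from separate mice or how many mice were pooled. The p-values therefore measure the spread between these samples, which may be technical.

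GMP give rise to neutrophils and monocytes. Their best-known products are the serine proteases and peroxidase stored in primary (azurophil) granules, made at the progenitor stage under C/EBP, PU.1 and GFI1 family factors. CDP give rise to classical and plasmacytoid dendritic cells and depend on FLT3, the receptor for FLT3 ligand, and on factors such as IRF8, ID2 and TCF4. MHC class II molecules present peptides to CD4+ T cells and are the defining surface molecules of mature dendritic cells.

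Each array gave 1 linear intensity per probe set, and the median intensity was 16.1 and 15.95 on the GMP arrays and 16.7 and 17.0 on the CDP arrays. Log2 values of the arrays of a group correlated across genes at 0.997 in GMP and 0.995 in CDP, and 9 and 7 genes differed 2-fold between them. Differences are given as CDP minus GMP on log2(intensity + 32), each with its standard error (SE) from limma, so a dim gene's difference is smaller than on the linear scale. A gene was called when its Benjamini-Hochberg adjusted p over all 18193 genes was at most 0.05. With 2 arrays against 2, an exact permutation test of a single gene cannot go below p = 0.333, so the calls rest on the spread pooled over genes and over 8 arrays. Each value is of 1 probe set; with the mean of a gene's probe sets, 56 of the 243 named genes that kept their call moved by over 1.5 times. The arrays do not separate fewer cells of a type from less RNA per cell, here or in any result below.

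CDP and GMP differed at 5115 of 18193 genes, which is 28.1% of those tested. CDP were higher at 2911 genes (16%) and lower at 2204 (12.1%). The list counts below are to be read against these shares. Brighter genes were called more often: with a filter on low values 3039 of 10477 genes were higher and 2146 lower. Of the called genes 798 differed at least 2-fold, 491 higher in CDP and 307 lower, and 86 were at least 4-fold higher and 61 at least 4-fold lower. At 5114 of the called genes the CDP and GMP arrays did not overlap. A call with 2 arrays a group nearly requires this, so a lack of overlap adds no support, here or below. The share of called genes that were higher in CDP depended on the scaling. It was 56.9% on the deposited scale, 51.9% after median centring and 41.1% after quantile normalization, so which direction held more genes is not settled. Among the lists below, the direction with more calls changed under one of these scalings only for the integrin, cholesterol, leukotriene, DNA replication and B cell lists, as given with each. Without GMP replicate 1 the genes higher in CDP numbered 1897, and without GMP replicate 2 the genes lower in CDP numbered 1389.

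**Figure D1:**
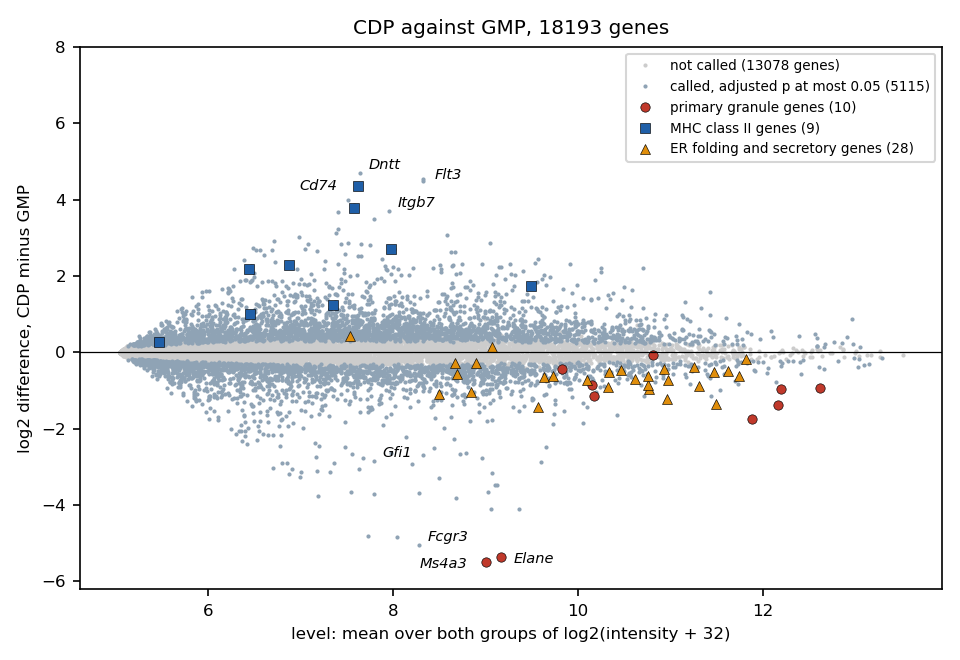
Log2 difference between CDP and GMP (CDP minus GMP, vertical) against the level (mean over both groups of log2(intensity + 32), horizontal) for all 18193 genes, 1 point per gene, with 3 gene lists marked. The 9 genes of the MHC class II list lie above 0, and Ms4a3 and Elane lie lowest at -5.48 and -5.36.

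The genes of the sorted surface proteins were read first, since the gates used their products. Flt3, which encodes CD135, read 35.9 and 31.8 in GMP and 1408 and 1623 in CDP, a log2 difference of 4.55 (SE 0.10, adjusted p = 9.87e-12). Fcgr3, which encodes CD16, read 1774 and 1729.9 in GMP and 21.9 and 22.3 in CDP, a difference of -5.04 (SE 0.10, adjusted p = 8.76e-12). Both CDP arrays were far from both GMP arrays for either gene, in the direction of the gates. Kit, which encodes CD117, read 905 and 1085 in GMP and 368 and 335 in CDP, a difference of -1.42 (SE 0.11). Fcgr2b, which encodes the CD32 part of the CD16/32 stain, differed less, at 723 and 658 in GMP and 314 and 350.4 in CDP (-0.99, SE 0.11), and Fcgr4 was dim and lower at -0.49 (SE 0.077). Markers that both gates excluded were nonetheless unequal at the RNA level. Itgax (CD11c) read 14.7 and 13.6 in GMP and 153 and 124 in CDP, Il7r read 11.4 and 8.53 in GMP and 109 and 94.8 in CDP, and H2-Eb1 read 9.30 and 7.77 in GMP and 182 and 128 in CDP, with log2 differences of 1.88 (SE 0.11), 1.67 (SE 0.096) and 2.19 (SE 0.15). In pre-cDC, which were sorted as CD11c positive, Itgax read 1537 and 1563.

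Of the 4 marker genes given for this comparison, Cd74 and Itgb7 were higher in CDP and Ms4a3 and Gfi1 were lower. They were named for this comparison, so they are no separate support for it, also where a list below counts them. Cd74, the invariant chain that escorts MHC class II, read 11.5 and 11.1 in GMP and 998 and 729 in CDP, a difference of 4.35 (SE 0.26, adjusted p = 6.54e-08). Itgb7, the integrin beta chain that pairs with alpha 4 and alpha E in homing to gut, read 36.2 and 37.4 in GMP and 924 and 799 in CDP, a difference of 3.69 (SE 0.11, adjusted p = 1.29e-10). Ms4a3, a four-pass membrane protein of granulocyte-monocyte progenitors, read 3386 and 3419 in GMP and 43.5 and 46.1 in CDP, a difference of -5.48 (SE 0.10, adjusted p = 5.28e-12). Gfi1, a repressor required for neutrophil development, read 543 and 585 in GMP and 49.6 and 51.3 in CDP, a difference of -2.85 (SE 0.11, adjusted p = 9.91e-10). No CDP array overlapped a GMP array for any of them. In CMP, Cd74 read 174 and 61.1, arrays well apart.

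Primary granule genes were lower in CDP, but by very unequal amounts. Of 10 measured members 9 were lower, against 12.1% of all genes, with a list median of -1.04 beside a median of 0.00483 over all genes. This list, like the others, was drawn up with earlier results of these data known, so such contrasts are descriptions. Elane, neutrophil elastase, read 3594 and 3712 in GMP and 49.2 and 67.0 in CDP, a difference of -5.36 (SE 0.12, adjusted p = 9.87e-12), and with Ms4a3, a membrane protein placed in the same list, it stood lowest. CDP arrays still read above the median intensity for both genes, and GMP arrays were far brighter. Other major granule enzymes were lower but remained bright in CDP: Prtn3, proteinase 3, read 7245 and 7344 in GMP and 2561 and 3064 in CDP (-1.37, SE 0.13). Ctsg, cathepsin G, read 6865 and 6863 in GMP and 1900.0 and 2168 in CDP (-1.74, SE 0.098). Mpo, myeloperoxidase, read 8478 and 8764 in GMP and 4123 and 4962 in CDP (-0.93, SE 0.093). Elane and Prtn3 are neighbours on chromosome 10 and both encode serine proteases of the same granule, yet their differences were -5.36 and -1.37. The granule proteoglycan gene Srgn (-0.95, SE 0.073), the protease inhibitor genes Cst7 (-1.13, SE 0.13) and Serpinb1a (-0.86, SE 0.13) and Gusb, beta-glucuronidase (-0.45, SE 0.089), were lower. The Gusb call was lost with the mean of its probe sets (-0.24). Hexa, a hexosaminidase subunit, was not called at -0.08 (SE 0.078). In CMP, Elane read 132 and 118 and Ms4a3 read 107 and 117, far nearer to CDP than to GMP.

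The promoters of the 2 members of the primary granule list with the largest difference are shown because C/EBP and PU.1 are known to act on granule genes. They run from 250 bases before to 50 bases after the start site and come from RefSeq, build GRCm38.p6. Capitals mark every match, on either strand, to TTGCNNAA (a C/EBP motif), GAGGAAG (PU.1) or ATTGG (the NF-Y box, CCAAT on the other strand); no matches overlap. Ms4a3 lies at chr19:11640802-11641101 on the minus strand and Elane at chr10:79886062-79886361 on the plus strand.
Ms4a3: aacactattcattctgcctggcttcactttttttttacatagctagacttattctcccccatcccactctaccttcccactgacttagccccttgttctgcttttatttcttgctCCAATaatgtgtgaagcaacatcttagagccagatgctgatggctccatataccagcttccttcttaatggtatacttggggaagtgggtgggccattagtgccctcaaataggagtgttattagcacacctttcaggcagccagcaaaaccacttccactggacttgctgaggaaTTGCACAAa
Elane: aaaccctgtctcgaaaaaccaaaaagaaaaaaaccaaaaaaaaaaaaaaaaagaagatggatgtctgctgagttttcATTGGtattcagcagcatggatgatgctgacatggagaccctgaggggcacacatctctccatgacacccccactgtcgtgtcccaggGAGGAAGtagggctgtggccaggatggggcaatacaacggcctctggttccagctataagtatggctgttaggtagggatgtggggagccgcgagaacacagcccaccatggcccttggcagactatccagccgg
In the Ms4a3 sequence the C/EBP match covers bases 41 to 48 after the start and the NF-Y match bases -135 to -131. In the Elane sequence the PU.1 match covers bases -85 to -79 and the NF-Y match bases -173 to -169. Promoters were held for 8 of the 9 called members of the list. Of these 8, 2 had a C/EBP match, 5 a PU.1 match and 2 an NF-Y match, while among 32851 promoters of the same length the shares were 10.8%, 13.6% and 37.4%. A gene counted if any of its promoters matched, whereas the shares count each promoter singly. Genes with several promoters match more easily, so the bases are unlike. These are matches of letters only, and no binding was measured.

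**Figure D2:**
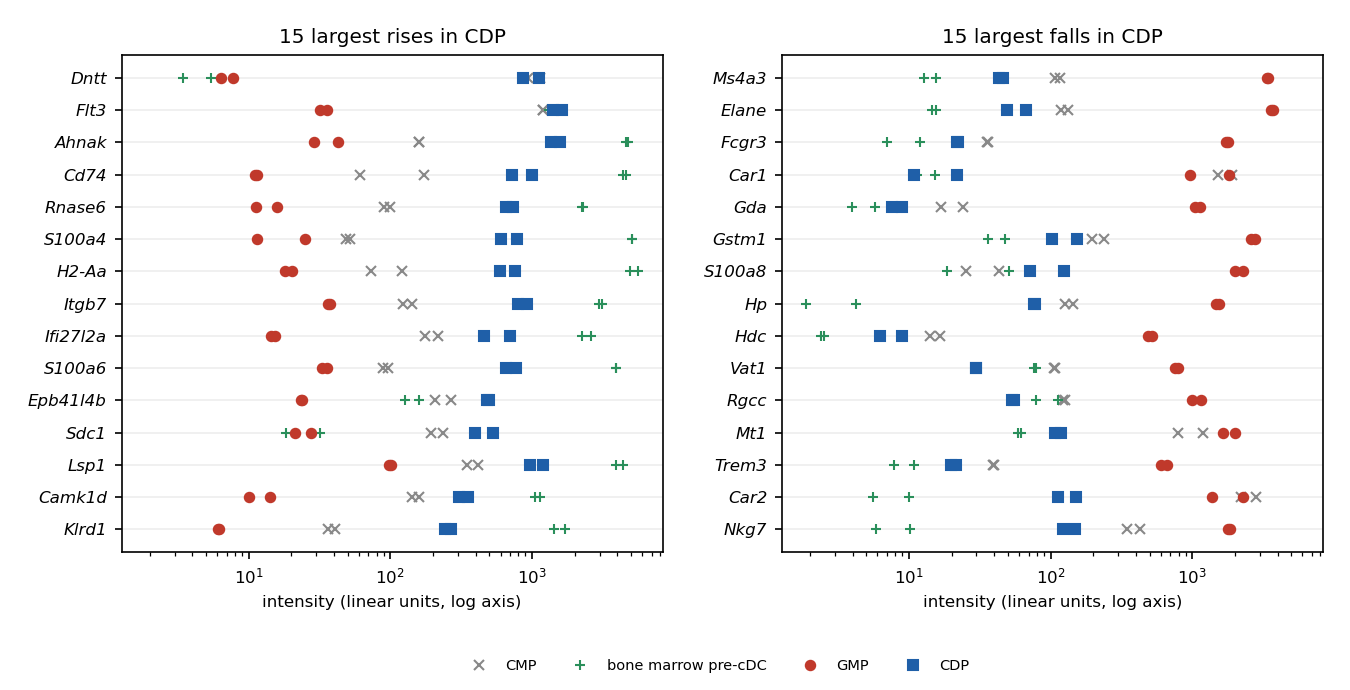
Intensity (linear units, log axis, horizontal) of the 15 genes with the largest rise and the 15 with the largest fall in CDP against GMP, 1 mark per array, with CMP and bone marrow pre-cDC beside them. The 30 genes were chosen to have no overlap between GMP and CDP arrays. Dntt, Sdc1 and Epb41l4b stand out among the rises because their pre-cDC arrays read below CDP.

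Secondary granule and neutrophil genes were mostly lower in CDP (12 of 18, median -0.77). S100a8, a subunit of calprotectin, read 2019 and 2292 in GMP and 125 and 71.8 in CDP, a difference of -4.10 (SE 0.23, adjusted p = 3.05e-08). Its partner S100a9 read 645 and 926 in GMP and 91.5 and 58.9 in CDP, a difference of -2.93 (SE 0.25). Hp, haptoglobin, read 1533 and 1481 in GMP and 76.9 and 77.6 in CDP (-3.82, SE 0.11). GMP arrays were high and CDP arrays low for these 3 genes, without overlap. Fcnb, a ficolin, and Chil3, a chitinase-like protein, were lower at -2.07 (SE 0.12) and -2.06 (SE 0.15). Ltf, lactoferrin, read 10.7 and 7.96 in GMP and 12.9 and 7.49 in CDP, and Mmp9, a gelatinase, read 11.5 and 9.44 in GMP and 8.87 and 10.9 in CDP; neither was called. Mmp8, a collagenase, was called in the other direction at 0.44 (SE 0.11), and the call was lost without GMP replicate 2 (0.29). Among 7 measured genes of the NADPH oxidase, Cybb (gp91phox, -0.95, SE 0.12) and the proton channel gene Hvcn1 (-0.81, SE 0.11) were lower and Rac1 (0.39, SE 0.089) was higher. The Rac1 call was lost without CDP replicate 2 (0.30) and with the mean of its probe sets (0.03). Cyba, Ncf1, Ncf4 and Rac2 were not called, at 0.11, 0.22, -0.15 and 0.14.

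In the granulocyte lineage list 6 of 12 were lower in CDP, led by Gfi1 (above) and Dach1, a transcriptional cofactor, at 129 and 141 in GMP and 12.6 and 20.6 in CDP (-1.78, SE 0.11). Cebpa, required for the GMP stage, read 692 and 743 in GMP and 276 and 363 in CDP (-1.1, SE 0.13). Cebpd read 697 and 704 in GMP and 259 and 367 in CDP (-1.1, SE 0.13) and Cebpb read 754 and 659.8 in GMP and 469 and 299 in CDP (-0.86, SE 0.16). The 3 C/EBP genes were lower in CDP yet well above the median intensity, and a second Cebpd probe set gave -0.26. Myb, needed for progenitor proliferation, was lower at -0.57 (SE 0.10). Runx1 (0.76, SE 0.10), Lmo4 (0.67, SE 0.13), Cebpg (0.31, SE 0.11) and Rara (0.28, SE 0.098) were higher. The Cebpg call was lost without CDP replicate 1, GMP replicate 1 or GMP replicate 2 (0.20 to 0.31) and with quantile normalization, median centring or only the 4 arrays in the fit (0.15 to 0.31). The Rara call was lost without any one of the 4 arrays (0.23 to 0.33) and with an added 64, quantile normalization, median centring, no variance trend or the probe set chosen by its linear mean (0.17 to 0.28). The 4 higher calls fell to 2 without CDP replicate 1, without either GMP replicate, after median centring and after quantile normalization.

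In the dendritic and monocyte lineage list 16 of 20 factor genes were higher in CDP and the other 4 were not called (median 0.74). Id2, an inhibitor of E proteins needed for cDC1, read 34.2 and 37.1 in GMP and 509 and 421 in CDP, a difference of 2.87 (SE 0.12, adjusted p = 2.09e-09). Mycl, a MYC family factor expressed in dendritic cells, read 5.40 and 5.07 in GMP and 226 and 186 in CDP (2.67, SE 0.11, adjusted p = 1.92e-09). Nfil3, a basic leucine zipper repressor upstream of cDC1 development, read 58.2 and 42.8 in GMP and 449.6 and 429.9 in CDP (2.52, SE 0.11, adjusted p = 4.10e-09). Each was several times higher on both CDP arrays than on either GMP array. Klf4 read 273 and 218 in GMP and 1384 and 1297 in CDP (2.31, SE 0.11), Bcl11a 231 and 314 in GMP and 1199 and 1245 in CDP (2.06, SE 0.11) and Tcf4, the plasmacytoid dendritic cell E protein, 275 and 292 in GMP and 1246 and 1278 in CDP (2.04, SE 0.099). Irf8, which both dendritic cells and monocytes need, was bright in both groups at 1565 and 1556 in GMP and 4489.8 and 4936 in CDP and higher in CDP by 1.57 (SE 0.076). Spi1, which encodes PU.1, was higher by 0.32 (SE 0.11). The Spi1 call was lost without any one of the 4 arrays (0.25 to 0.39) and with quantile normalization or median centring (0.18 to 0.30). Batf3 (1.03, SE 0.092) and Spib (0.83, SE 0.097) were called from low levels, Spib at 2.40 and 3.66 in GMP and 31.3 and 29.5 in CDP. Irf4, Zbtb46, Zeb2 and Bhlhe40 were not called, at 0.15, 0.32, 0.10 and -0.20; with the mean of its probe sets Zeb2 was called at 0.34. Irf4 and Zbtb46, which mark later classical dendritic cells, were dim in CDP at 10.4 and 13.2 and 34.1 and 21.5 and read 357 and 437 and 383 and 422 in pre-cDC. Opposing E and Id genes were higher together: beside Id2 and Tcf4, Tcf3 (0.67, SE 0.13) and the corepressor gene Cbfa2t3 (1.15, SE 0.11) were higher, while Id1 was lower at -0.57 (SE 0.095) and Tcf12, Cbfa2t2 and Id3 were not called. With the mean of its probe sets Tcf12 was called at 0.22.

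**Figure D3:**
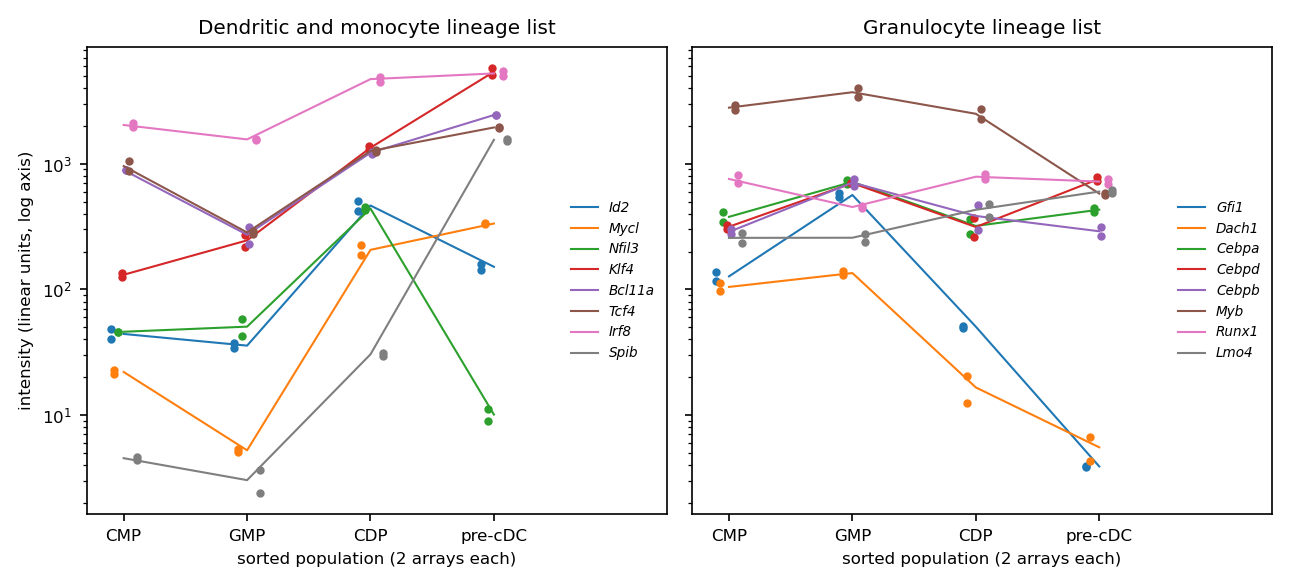
Intensity (linear units, log axis) of 8 transcription factor genes from the dendritic and monocyte lineage list and 8 from the granulocyte lineage list with 2 arrays for each of CMP, GMP, CDP and pre-cDC. Points are arrays, lines join group means as a guide only; Gfi1 and Dach1 are lower in CDP than in GMP, and Nfil3 is high in CDP alone of the 4 populations.

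MHC class II genes were higher in CDP at all 9 measured members, against 16% of all genes, with a median difference of 2.19. Cd74 is given above. H2-Aa, the alpha chain of I-A, read 20.1 and 18.1 in GMP and 762 and 595 in CDP, a difference of 3.79 (SE 0.16, adjusted p = 3.42e-09), and its 4 probe sets ranged from 0.69 to 4.20. H2-Ab1, the beta chain, read 66.1 and 65.0 in GMP and 730.1 and 511 in CDP (2.72, SE 0.16, adjusted p = 6.25e-08), and H2-Eb1 is given with the gate genes. CDP replicate 1 read above CDP replicate 2 for all 4 genes, by less than the distance to GMP. The peptide editors were higher too, with H2-DMa at 389 and 334 in GMP and 1295 and 1262 in CDP (1.74, SE 0.097) and H2-DMb2 at 1.23 (SE 0.10). H2-Ob (21.9 and 20.3 in GMP and 242 and 217 in CDP, 2.30, SE 0.14) and H2-Oa (1.01, SE 0.10), whose products restrain that editing, were also higher. Ciita, the master coactivator of these genes, was dim at 7.83 and 9.39 in GMP and 17.9 and 15.5 in CDP, a difference of 0.26 (SE 0.089, adjusted p = 0.0425). The Ciita call was lost without any one of the 4 arrays (0.23 to 0.30) and with an added 64 or median centring (0.15 to 0.24). In pre-cDC, H2-Aa read 4905 and 5615 and Ciita 140.5 and 159, whereas H2-Ob read 94.4 and 112, below CDP.

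Promoters of the 2 class II genes with the largest difference that the RefSeq table holds and that could be shown are given in the same form, because the class II promoters are known for a shared upstream block that ends in an NF-Y box. H2-Aa lies at chr17:34287774-34288073 on the minus strand and H2-Ob at chr17:34238655-34238954 on the plus strand of GRCm38.p6.
H2-Aa: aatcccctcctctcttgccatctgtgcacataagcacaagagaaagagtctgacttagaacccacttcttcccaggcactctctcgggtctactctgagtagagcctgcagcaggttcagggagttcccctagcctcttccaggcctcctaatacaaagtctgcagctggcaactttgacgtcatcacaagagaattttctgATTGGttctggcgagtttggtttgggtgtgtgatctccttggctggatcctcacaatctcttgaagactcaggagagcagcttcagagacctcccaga
H2-Ob: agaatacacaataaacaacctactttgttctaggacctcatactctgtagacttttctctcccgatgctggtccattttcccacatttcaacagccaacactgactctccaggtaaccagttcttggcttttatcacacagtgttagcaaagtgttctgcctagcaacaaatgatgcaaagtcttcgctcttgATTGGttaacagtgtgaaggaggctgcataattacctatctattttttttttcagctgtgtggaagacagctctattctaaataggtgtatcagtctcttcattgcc
The single capital run in each is an ATTGG match, at bases -48 to -44 in H2-Aa and -57 to -53 in H2-Ob. All 6 of the called class II members with a promoter in the table held an ATTGG match, against 37.4% of all promoters. None of the 6 held the C/EBP or the PU.1 letters searched for, in windows where 10.8% and 13.6% of all promoters do; this says only that these letters are not there.

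Genes of MHC class I presentation moved less. Tap1 (0.99, SE 0.11) and Tap2 (0.78, SE 0.13), the peptide transporter, Tapbp (0.55, SE 0.091) and the immunoproteasome gene Psmb9 (0.56, SE 0.10) were among 6 of 12 members higher in CDP. H2-K1 was not called, at 2742 and 2996 in GMP and 2785 and 2937 in CDP. Erap1, the peptide-trimming aminopeptidase, was lower at -0.64 (SE 0.15), B2m at -0.20 (SE 0.054) and H2-D1 at -0.21 (SE 0.063); these 3 calls became 1 without GMP replicate 1 or without GMP replicate 2. The B2m call was lost without CDP replicate 1, GMP replicate 1 or GMP replicate 2 (-0.21 to -0.17) and with no variance trend (-0.20). The H2-D1 call was lost without CDP replicate 2, GMP replicate 1 or GMP replicate 2 (-0.25 to -0.17). The mean of the H2-D1 probe sets gave 0.02. The Erap1 call was lost with the probe set chosen over the 8 arrays (-0.10). The Tapbp call was lost with the mean of its probe sets (0.19). Lysosomal genes divided. Ctss, the cathepsin that trims the invariant chain, read 661 and 419 in GMP and 2561 and 2570.0 in CDP (2.22, SE 0.14), and Ifi30, a lysosomal thiol reductase of antigen processing, read 142 and 147 in GMP and 779.8 and 681 in CDP (2.11, SE 0.12). Both GMP arrays were below both CDP arrays for either gene. Lgmn, legumain, was higher from a dim level (1.61, SE 0.17), Ctsh was higher too (1.22, SE 0.13), and 11 of 23 members of the list were higher. Gla, alpha-galactosidase, read 205 and 180.1 in GMP and 43.8 and 48.2 in CDP (-1.52, SE 0.12), and Ctsc, which activates the granule serine proteases, was lower at -0.65 (SE 0.11); 6 members were lower in all.

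Dendritic cell lists were higher in CDP with the exception of most cDC1 genes. In the classical dendritic cell core list 16 of 23 members were higher (median 0.81), Flt3 and Itgax of the gates among them. Kmo, kynurenine monooxygenase, read 26.5 and 24.8 in GMP and 360.0 and 304 in CDP (2.65, SE 0.12), and Dpp4 (CD26) read 82.1 and 75.0 in GMP and 461 and 529.8 in CDP (2.25, SE 0.11). Btla, an inhibitory receptor, was higher by 1.20 (SE 0.12). The activation marker Cd83 and the lectin gene Cd207 were dim and not called, at -0.14 and 0.02. Of 12 measured cDC1 genes 4 were higher: Wdfy4, needed for cross-presentation (1.07, SE 0.10), Batf3, Naaa (0.88, SE 0.13) and the dim Gcsam (0.32, SE 0.085). The Gcsam call was lost without CDP replicate 1, CDP replicate 2 or GMP replicate 2 (0.24 to 0.32). Xcr1, Itgae and Tlr3 were dim in all 4 arrays and not called, though Tlr3 was with the mean of its probe sets (0.23). Of 14 cDC2 genes 10 were higher, with Klf4 above, the lectin gene Clec10a at 44.7 and 39.2 in GMP and 193 and 165 in CDP (1.51, SE 0.12) and Notch2 at 457 and 495 in GMP and 1008 and 1147 in CDP (1.12, SE 0.099). The lectin gene Mgl2, often used for the same cells, was lower at 134 and 121 in GMP and 12.5 and 13.3 in CDP (-1.83, SE 0.085), as was Epcam at -0.58 (SE 0.11). Clec10a and Mgl2 encode closely related lectins, so probes can share sequence.

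Plasmacytoid dendritic cell genes were higher at 15 of 18 measured members (median 1.0). Upb1, beta-ureidopropionase, read 8.35 and 9.46 in GMP and 255 and 205 in CDP (2.67, SE 0.12, adjusted p = 5.93e-09). Pld4, an exonuclease of endosomes, read 178 and 126 in GMP and 882 and 816 in CDP (2.28, SE 0.13), and Cyb561a3 read 367 and 368 in GMP and 1312 and 1190.5 in CDP (1.68, SE 0.091). Bst2, the tetherin recognised by a plasmacytoid antibody, was higher by 1.32 (SE 0.12). Siglech, the defining lectin of these cells, was called from a low level, 6.87 and 8.88 in GMP and 54.6 and 40.7 in CDP (0.99, SE 0.11). The endosomal receptor gene Tlr9 was not called at 19.5 and 21.2 in GMP and 18.9 and 29.4 in CDP, and Lair1 and Klk1 were not called either. Without CDP replicate 1, Lair1 was called lower at -0.50, and Klk1 was called lower after quantile normalization (-0.43) and with no variance trend (-0.28).

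Monocyte genes were higher in CDP at 10 of 16 members (median 0.76), although GMP are the progenitors named for that lineage. Cx3cr1, the fractalkine receptor, read 76.1 and 61.3 in GMP and 655 and 601 in CDP (2.72, SE 0.11), and its other probe set gave -0.04. Mpeg1, perforin-2, read 848 and 638 in GMP and 3458 and 3622 in CDP (2.22, SE 0.11), and Ccr2 read 445 and 319 in GMP and 1208 and 1086 in CDP (1.53, SE 0.13). Csf1r, the M-CSF receptor, was bright in both at 1705 and 1414 in GMP and 2910.5 and 3285 in CDP and higher in CDP by 0.98 (SE 0.095). CDP arrays were above GMP arrays for each of these genes. Adgre1, the F4/80 antigen, was lower at 92.3 and 78.0 in GMP and 27.7 and 21.7 in CDP (-1.05, SE 0.11), and Cd14 was lower from a dim level (-0.47, SE 0.077). Many of these genes were higher still in pre-cDC, Cx3cr1 at 1670.5 and 1838 and S100a4 at 5079 and 5118.

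A pair of gene clusters held neighbours with opposite differences; the clusters were chosen after their values were seen. In the S100 cluster of chromosome 3, read in RefSeq order, S100a4 (24.9 and 11.5 in GMP and 789 and 607 in CDP, 3.86, SE 0.14, adjusted p = 9.74e-10) and S100a6 (36.0 and 33.0 in GMP and 767 and 659 in CDP, 3.48, SE 0.11, adjusted p = 1.70e-10) were higher in CDP. The next genes, S100a8 and S100a9, were lower at -4.10 and -2.93, and S100a10 was again higher at 1.91 (SE 0.11). S100a5, between S100a4 and S100a6, read 15.3 and 13.4 in GMP and 13 and 16.1 in CDP and was not called. In the Ms4a cluster of chromosome 19, Ms4a4c (451 and 356 in CDP and 48.1 and 33.5 in GMP, 2.58, SE 0.15) and Ms4a4b (563 and 472 in CDP and 85.8 and 53.3 in GMP, 2.45, SE 0.15) were higher in CDP. Ms4a6c (0.98, SE 0.11) and Ms4a6b (1.17, SE 0.10) followed and were higher as well. Ms4a6d (-0.35, SE 0.091), Ms4a2, the beta chain of the high-affinity IgE receptor (-0.77, SE 0.07), and Ms4a3 close the cluster and were lower. The Ms4a6d call was lost without CDP replicate 2 or GMP replicate 1 (-0.28 to -0.26). Ms4a1, the B cell antigen CD20, was dim in all 4 arrays at 7.28 and 5.86 in GMP and 5.94 and 7.16 in CDP. The Ms4a4 and Ms4a6 genes are close paralogs, so their probe sets can share sequence. Among annexins, Anxa6 (1.70, SE 0.14) and Anxa2 (0.78, SE 0.11) were higher in CDP, while Anxa3 (-1.62, SE 0.12) and Anxa1 (-1.18, SE 0.12) were lower. The Anxa2 call was lost with the mean of its probe sets (0.20).

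Genes of lymphoid priming were higher in CDP at 16 of 19 members (median 0.84), and one of them gave the largest rise of all named genes. Dntt, terminal transferase, which adds bases at antigen receptor joints, read 6.41 and 7.79 in GMP and 866 and 1118 in CDP, a difference of 4.70 (SE 0.14, adjusted p = 1.03e-10). It read 934 and 1147 in CMP and 3.42 and 5.46 in pre-cDC, so CMP and CDP were high and GMP and pre-cDC low. Notch1 read 159.9 and 158 in GMP and 876 and 979 in CDP (2.33, SE 0.12), Satb1, a chromatin organiser, 383 and 389 in GMP and 1634 and 1604 in CDP (1.98, SE 0.096), and Gimap6 11.1 and 12.9 in GMP and 143 and 165 in CDP (2.08, SE 0.12). Sox4 (1.31, SE 0.091) and Ighm, the mu heavy chain locus (1.39, SE 0.11), were higher. The Ighm call was lost with the mean of its probe sets (0.17). The recombinase genes Rag1 and Rag2 stayed dim, Rag1 at 7.27 and 4.66 in GMP and 15.4 and 15.8 in CDP and Rag2 at 3.42 and 3.55 in GMP and 12.9 and 12.3 in CDP, though both were called, at 0.33 (SE 0.071) and 0.33 (SE 0.063). The Rag1 call was lost without GMP replicate 2 (0.28). Ets1 was lower at -0.30 (SE 0.10). The Ets1 call was lost without any one of the 4 arrays (-0.38 to -0.22) and with only the 4 arrays in the fit or the mean of its probe sets (-0.30 to -0.15).

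Genes of stem and early progenitors did not move as a block: 8 of 19 were higher and 3 lower. That is 42.1% and 15.8%, against 16% and 12.1% of all genes. Egfl7 (2.0, SE 0.13), the chromatin protein gene Hmga2 (1.48, SE 0.11), Hoxa9 (1.08, SE 0.14) and its cofactor Meis1 (1.06, SE 0.12) were higher in CDP. Nfe2 (-1.26, SE 0.10) and Tal1 (-0.62, SE 0.18), factors shared with red cell and platelet lineages, and Muc13 (-0.98, SE 0.15) were lower. The Tal1 call was lost without CDP replicate 1 or GMP replicate 2 (-0.47 to -0.35). Cd34 was bright in all 4 arrays at 1163 and 1205 in GMP and 1551 and 1456 in CDP (0.34, SE 0.12). The Cd34 call was lost without any one of the 4 arrays (0.29 to 0.38) and with an added 16, quantile normalization, median centring, the mean of its probe sets or no variance trend (0.25 to 0.34). Hoxa9 read 1000.2 and 1259 in CMP and 60.0 and 45.1 in pre-cDC.

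Cytokine receptor genes were higher in CDP at 16 of 29 members and lower at 4 (median 0.50). Il6st (gp130), the shared signalling chain, read 327 and 269 in GMP and 1655 and 1602 in CDP (2.34, SE 0.10, adjusted p = 4.24e-09). Lifr, the LIF receptor, read 1.0 and 7.13 in GMP and 132 and 191 in CDP (2.41, SE 0.19, adjusted p = 7.82e-07), and Il6ra read 370.0 and 313 in GMP and 795 and 713 in CDP (1.08, SE 0.12). These 3 chains were higher on both CDP arrays than on either GMP array. Il17ra (1.80, SE 0.11), Csf2rb2 (1.68, SE 0.12), Il18r1 (1.61, SE 0.093) and Il4ra (1.40, SE 0.12) were higher. The GM-CSF receptor genes did not differ by the test: Csf2ra read 911 and 935 in GMP and 894 and 903 in CDP (-0.04, SE 0.098) and Csf2rb read 846 and 803 in GMP and 805 and 909 in CDP (0.05, SE 0.10). The G-CSF receptor gene Csf3r, which drives neutrophil production, was lower at 237 and 255 in GMP and 85.0 and 115 in CDP (-1.09, SE 0.12). The interferon-gamma receptor chains were called in opposite directions. Ifngr1, which binds the ligand, read 1502 and 1572 in GMP and 489 and 525 in CDP (-1.54, SE 0.091, adjusted p = 5.74e-08). Ifngr2 read 132 and 71.6 in GMP and 140.3 and 389 in CDP (1.05, SE 0.34, adjusted p = 0.0374); CDP replicate 1 lay close to GMP replicate 1 and its other probe set gave 0.02. The Ifngr2 call was lost without CDP replicate 2 or GMP replicate 2 (0.40 to 0.71) and with quantile normalization, only the 4 arrays in the fit, the mean of its probe sets, no variance trend, robust variances or the probe set chosen by its linear mean (0.02 to 1.05). Both type I receptor genes, Ifnar1 (0.58, SE 0.11) and Ifnar2 (0.66, SE 0.097), were higher.

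Downstream of these receptors, 6 of 17 STAT and SOCS genes were higher in CDP, and 3 without GMP replicate 1. Pim1, a STAT5 target kinase, read 273 and 301 in GMP and 669.6 and 712 in CDP (1.18, SE 0.14), Stat3 was higher by 0.52 (SE 0.12), and Socs3 was called from a dim level (0.62, SE 0.081). The Stat3 call was lost without CDP replicate 2 or GMP replicate 1 (0.42 to 0.47). Socs6 was lower at -0.35 (SE 0.12). The Socs6 call was lost without CDP replicate 2, GMP replicate 1 or GMP replicate 2 (-0.44 to -0.26) and with only the 4 arrays in the fit or the mean of its probe sets (-0.35 to -0.21). Interferon-stimulated genes were higher at 12 of 26, and at 5 without GMP replicate 2, with Mx1 at 21.1 and 15.7 in GMP and 107 and 96.2 in CDP (1.41, SE 0.11) and Irf9 at 113 and 97.2 in GMP and 363 and 240.0 in CDP (1.26, SE 0.15). Ifi27l2a, an interferon-inducible gene outside that list, read 14.3 and 15.5 in GMP and 699 and 458 in CDP (3.67, SE 0.16, adjusted p = 4.51e-09). The classical members Ifit1, Ifit3 and Oas1a were not called, at -0.07, 0.00 and 0.02. Ifitm2 was lower at -0.32 (SE 0.08). The Ifitm2 call was lost without GMP replicate 2 (-0.31). Toll-like receptor genes were higher at 4 of 20 and lower at 3, near the shares over all genes. Cd180 (1.57, SE 0.12), its partner Ly86 (0.87, SE 0.084), Tlr7 (0.41, SE 0.08) and the endosomal chaperone gene Unc93b1 (1.04, SE 0.11) were higher. Irak3, a brake on this pathway, read 153 and 186 in GMP and 37.6 and 35.7 in CDP (-1.55, SE 0.11), and Tlr4 and Cd14, which sense lipopolysaccharide, were lower at -0.63 (SE 0.078) and -0.47 (SE 0.077).

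Genes of Fc receptor and ITAM signalling were higher in CDP at 11 of 18 members, the receptor genes of the gate being the 3 that were lower. The adaptors Fcer1g (1182 and 973 in GMP and 2011 and 1738 in CDP, 0.78, SE 0.10) and Tyrobp (1815 and 1541 in GMP and 3098 and 3127 in CDP, 0.88, SE 0.081) were higher, as were Lat2 (1.87, SE 0.12) and Blnk (1.61, SE 0.11). Among C-type lectins, Siglecs and CD300 receptors 10 of 24 were higher and 5 lower, 41.7% and 20.8% against 16% and 12.1% of all genes. Klrb1f read 339 and 215 in GMP and 1137 and 1081 in CDP (1.91, SE 0.17). Clec5a, which pairs with DAP12 on myeloid cells, read 204 and 173 in GMP and 16.5 and 17.2 in CDP (-2.17, SE 0.10), and Clec4a2 read 127 and 126 in GMP and 9.99 and 10.4 in CDP (-1.91, SE 0.089). Clec4d (-1.08, SE 0.11) and Clec4e (-0.97, SE 0.11), neighbouring receptors for mycobacterial glycolipid, were lower together.

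Homing genes were mostly higher in CDP, with 11 of 20 called so. Beside Cx3cr1 and Ccr2, the P-selectin ligand gene Selplg (706 and 672 in GMP and 1989 and 1850.4 in CDP, 1.44, SE 0.081), the sphingosine phosphate receptor gene S1pr3 (1.43, SE 0.13) and Cxcr4, which holds progenitors in marrow (1.11, SE 0.14), were higher. Ccr7 (50.0 and 41.2 in CDP) and Ccr9 (57.7 and 60.0) were called from dim levels. Cxcr2, the neutrophil receptor, was lower at -0.73 (SE 0.079). Integrin genes were called in both directions, 5 of 18 higher and 4 lower, and 4 and 5 after quantile normalization. On the deposited scale that is 27.8% and 22.2% of the list, against 16% and 12.1% of all genes. Of the 18, 14 read above the median intensity in the brighter group. Among genes that passed the filter on low values, 3039 of 10477 were higher and 2146 lower, shares near those of the list. Itgal, the LFA-1 alpha chain (0.75, SE 0.086), and Itga4, the partner of Itgb7 (0.49, SE 0.097), were higher, while Itga1 (-0.95, SE 0.10), Itga6 (-0.67, SE 0.11), Itga2b (-0.66, SE 0.11) and Itgb1 (-0.49, SE 0.13) were lower. The Itgb1 call was lost without CDP replicate 2, GMP replicate 1 or GMP replicate 2 (-0.54 to -0.35). The Itga6 call was lost with the mean of its probe sets (-0.31).

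Immediate early genes were higher in CDP at 19 of 27 members, with a median of 0.80. Fosb read 99.2 and 114 in GMP and 603 and 607 in CDP (2.20, SE 0.12, adjusted p = 2.86e-08), Egr1 read 185 and 160.2 in GMP and 813 and 859 in CDP (2.09, SE 0.18, adjusted p = 1.69e-06), and Ier5 read 81.0 and 87.0 in GMP and 503 and 473 in CDP (2.16, SE 0.10). Zfp36, which destabilises cytokine RNAs, read 376 and 364 in GMP and 1437 and 1530.3 in CDP (1.91, SE 0.085). Both CDP arrays exceeded both GMP arrays in each of these 4 genes. Fos itself was bright and higher by 0.47 (SE 0.08). Immediate early and heat shock genes can both respond to cell handling, whose part in the result was not tested. Heat shock genes gave 2 of 11 members higher and 4 lower, where 16% and 12.1% of all genes were. The count lower was 1 without CDP replicate 2, GMP replicate 1 or GMP replicate 2, and the count higher was 1 without CDP replicate 1 or GMP replicate 2. Hspa1a differed more between arrays of a group, 460.1 and 215 in GMP and 942 and 394 in CDP, than most genes here and was not called (0.89, SE 0.39), but was without CDP replicate 2 (1.48). Myc (-0.45, SE 0.14), Ier3 (-0.86, SE 0.16) and Gadd45b (-0.91, SE 0.11) were lower in CDP. The Myc call was lost without CDP replicate 1 or GMP replicate 2 (-0.33 to -0.25). Among Ras and MAPK feedback genes 7 of 17 were higher and 2 lower (median 0.11), with Rgs1 (1.75, SE 0.23) and Rgs10 (1.1, SE 0.12) higher and Spry2 (-0.87, SE 0.11) and Rasa2 (-1.24, SE 0.11) lower. The share higher was 41.2%, against 16% of all genes, and the share lower was 11.8%, near the 12.1% of all genes.

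**Figure D4:**
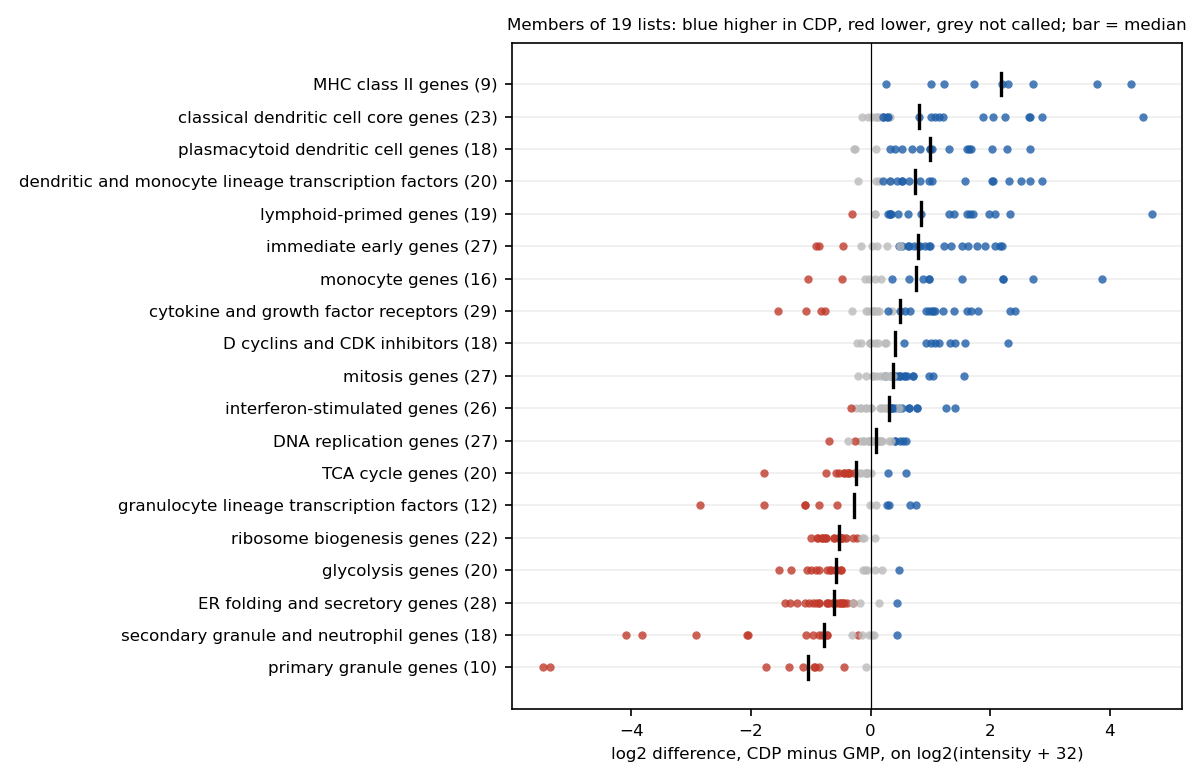
Log2 difference between CDP and GMP (CDP minus GMP, on log2(intensity + 32)) for every measured member of 19 gene lists, 1 point per gene, with the number of measured members in brackets and the list median as a bar. The median is 2.19 for MHC class II genes, -0.62 for ER folding and secretory genes and -1.04 for primary granule genes.

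Among cell cycle genes, G1 regulators and mitosis genes held many that were higher in CDP. Of 18 D cyclin and CDK inhibitor genes 9 were higher in CDP. Ccnd1 read 121 and 143 in GMP and 846 and 707 in CDP (2.30, SE 0.17, adjusted p = 4.34e-07), Ccnd2 was higher by 1.01 (SE 0.12) and Ccnd3 by 0.93 (SE 0.17), and E2f2, a factor of S phase entry, by 1.57 (SE 0.12). Inhibitors of the same step were higher at the same time: Cdkn2d (1.42, SE 0.10), Cdkn1a (1.33, SE 0.13), Cdkn1b (1.14, SE 0.10) and Cdkn2c (1.08, SE 0.13). Mitosis genes were higher at 15 of 27, led by Kif23 at 497 and 577 in GMP and 1596 and 1684 in CDP (1.56, SE 0.094) and Nusap1 at 1.05 (SE 0.12), both of the spindle. That count was 9 without CDP replicate 1 and 7 without GMP replicate 1, and GMP replicate 2 read above GMP replicate 1 for 26 of the 27, Plk1 at 216 and 346 and called in CDP against GMP at 0.50 (SE 0.17). The Plk1 call was lost without CDP replicate 1, CDP replicate 2 or GMP replicate 1 (0.19 to 0.54) and with quantile normalization, only the 4 arrays in the fit, the mean of its probe sets or no variance trend (0.35 to 0.49). Cdk1 read 1489 and 1683 in GMP and 1506 and 1508 in CDP and was not called. DNA replication genes mostly were not called: 5 of 27 were higher, near the 16% of all genes, and 2 lower. All 27 read above the median intensity in the brighter group, and both shares lay below those of all genes that passed the filter on low values. Mcm2 read 1473 and 1671 in GMP and 1597 and 1573 in CDP. Of this list 3 were higher without CDP replicate 2 or either GMP replicate, 1 was lower without either GMP replicate, and after quantile normalization 4 were higher and 4 lower. Cdc45 was lower at -0.69 (SE 0.11). The Cdc45 call was lost with the mean of its probe sets (-0.01). Among Bcl2 family genes 5 of 14 were higher in CDP (35.7%, against 16% of all genes) and 9 were not called. Of the 14, 13 read above the median intensity in the brighter group, and brighter genes were called more often. Bcl2 (851 and 859.9 in GMP and 2167 and 2340.4 in CDP, 1.36, SE 0.085), Mcl1 (0.84, SE 0.084), Pmaip1 (NOXA, 1.52, SE 0.12) and Bcl2l11 (BIM, 0.75, SE 0.11) were higher. These 4 included both protectors and killers.

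Genes of protein export and folding were lower in CDP almost throughout. In the ER folding and secretory list 24 of 28 members were lower, with a median of -0.62. Sdf2l1, a chaperone partner, read 1296 and 1144 in GMP and 448 and 413 in CDP (-1.43, SE 0.17, adjusted p = 3.61e-05). Calr, calreticulin, read 4422 and 4637 in GMP and 1884 and 1663 in CDP (-1.34, SE 0.097, adjusted p = 4.03e-07), and P4hb, protein disulfide isomerase, read 2967 and 3079.5 in GMP and 1354 and 1202 in CDP (-1.22, SE 0.12, adjusted p = 4.68e-06). CDP arrays were below GMP arrays for each, and CMP arrays read 2118 and 2478 for Calr. The transcription factor gene Xbp1, which drives this programme, was lower (-0.69, SE 0.083), and Hspa5 (BiP) was lower at -0.61 (SE 0.068). Atf6 was the 1 member higher, at 0.44 (SE 0.12). The Atf6 call was lost without CDP replicate 2 or GMP replicate 1 (0.36 to 0.38) and with quantile normalization (0.28). Ribosome biogenesis genes were lower at 18 of 22 (median -0.53), among them the polymerase I gene Polr1b (-1.0, SE 0.16), Rrp12 (-0.89, SE 0.12) and nucleolin, Ncl (4086 and 4481 in GMP and 2625 and 2449 in CDP, -0.75, SE 0.081). Among ATF4 target and amino acid genes 7 of 18 were lower. Asns, asparagine synthetase, read 243 and 387 in GMP and 28.6 and 31.4 in CDP (-2.45, SE 0.20), and the large amino acid transporter gene Slc7a5 read 491 and 548 in GMP and 238 and 224 in CDP (-1.07, SE 0.11). Atf4 was not called at -0.01.

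Sugar metabolism ran the same way. Glycolysis genes were lower in CDP at 14 of 20 members (median -0.58). The lactate transporter gene Slc16a1 read 1018 and 1154 in GMP and 360.5 and 346 in CDP (-1.54, SE 0.11), the hexokinase gene Hk3 read 1638 and 1672 in GMP and 610.0 and 665 in CDP (-1.33, SE 0.11), Hk1 was lower at -1.06 (SE 0.17), and Aldoa, aldolase, read 2352 and 2431 in GMP and 1168 and 1207 in CDP (-0.99, SE 0.085). No CDP array reached a GMP array in these genes. Glucose transporter gene Slc2a3 was called higher (0.48, SE 0.13). The Slc2a3 call was lost without CDP replicate 1, CDP replicate 2 or GMP replicate 1 (0.28 to 0.49) and with quantile normalization or the mean of its probe sets (0.25 to 0.32). Of 6 pentose phosphate genes, Pgd (2318 and 2616 in GMP and 1124 and 1075 in CDP, -1.14, SE 0.10), Rpia (-0.80, SE 0.089), Tkt (-0.57, SE 0.062) and Rpe (-0.45, SE 0.12) were lower, and Taldo1 (-0.25) and Pgls (0.31) were not called. Taldo1 was called after quantile normalization and without CDP replicate 1, and Pgls with the filter on low values, with only the 4 arrays and with robust variances. The Rpe call was lost without CDP replicate 2 or GMP replicate 1 (-0.40 to -0.29). The TCA cycle list also held related genes outside the cycle, among them Idh1, Mdh1 and Pdk1. Of its 20 measured genes 10 were lower, and 6 without CDP replicate 2 or GMP replicate 2. Idh1, the cytosolic NADP-dependent enzyme, differed most at 1043 and 891 in GMP and 270.3 and 245 in CDP (-1.78, SE 0.11, adjusted p = 9.77e-08), while its mitochondrial counterpart Idh2 was not called (-0.20, SE 0.099) except after quantile normalization (-0.28). Fh1, fumarase, was higher by 0.60 (SE 0.081); 2 genes of the list were higher, and 1 without any one of the 4 arrays. Cholesterol and fatty acid synthesis genes had no common direction, 5 of 20 higher and 3 lower, and 3 and 5 after quantile normalization. On the deposited scale 25% were higher and 15% lower, against 16% and 12.1% of all genes. However, 19 of the 20 read above the median intensity in the brighter group. Both shares lay below those of all genes that passed the filter on low values. The count higher was 3 without CDP replicate 1 or either GMP replicate, and the count lower was at most 1 without any one of the 4 arrays. Srebf2 was higher by 1.02 (SE 0.12). Haem synthesis and iron genes were lower at 7 of 14. GMP replicate 2 read above GMP replicate 1 for 12 of the 14, as it did for 10 of 11 erythroid markers, whose sum was 2876 on GMP replicate 1 and 5381 on GMP replicate 2; their part in the result was not tested. Alas1, the first enzyme of the pathway, read 2006 and 2127 in GMP and 237 and 277 in CDP (-2.86, SE 0.12, adjusted p = 1.92e-09), Blvrb, a biliverdin reductase, was lower at -1.50 (SE 0.29), and Fech, Cpox, Urod and Alad were lower at -0.66, -1.06, -0.61 and -0.51. The Blvrb call was lost with robust variances (-1.50). The Cpox call was lost without CDP replicate 2 (-0.72) and with robust variances (-1.06). The Urod call was lost without GMP replicate 2 (-0.47). The Alad call was lost without CDP replicate 2 or GMP replicate 2 (-0.48 to -0.35). Lipid mediator genes were called higher at 2 of 13 and lower at 2, near the 16% and 12.1% of all genes, and after quantile normalization at 1 and 3. The count higher was 1 without CDP replicate 2 or GMP replicate 2. Ptger4, a prostaglandin E2 receptor, read 126 and 138 in GMP and 995 and 961 in CDP (2.62, SE 0.095, adjusted p = 8.34e-10), and Lta4h, leukotriene A4 hydrolase, read 4020.2 and 4143 in GMP and 1878 and 1806 in CDP (-1.13, SE 0.10).

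The remaining genes of largest rise served varied roles. Ahnak, a giant scaffold protein, read 42.8 and 28.8 in GMP and 1588 and 1369 in CDP (4.48, SE 0.12, adjusted p = 4.96e-11), but its 4 probe sets ranged from -0.01 to 4.48. Rnase6, an antimicrobial ribonuclease, read 11.3 and 15.9 in GMP and 739.8 and 659 in CDP (4.0, SE 0.11, adjusted p = 6.20e-11). Sdc1, syndecan-1, read 27.5 and 21.4 in GMP and 531 and 399 in CDP (3.13, SE 0.15, adjusted p = 9.09e-09), with 4 probe sets from 0.03 to 3.13. Epb41l4b read 23.6 and 23.8 in GMP and 478 and 496 in CDP (3.22, SE 0.13), Lsp1, a leukocyte actin-binding protein, 97.8 and 100.4 in GMP and 1204 and 961 in CDP (3.08, SE 0.12), and the kinase gene Camk1d 10.1 and 14.1 in GMP and 355 and 304 in CDP (3.03, SE 0.12). In pre-cDC, Sdc1 read 32.1 and 18.4 and Epb41l4b 159 and 127, below CDP, while Ahnak read 4591 and 4791. Among the falls, Gda, guanine deaminase, read 1139 and 1042 in GMP and 7.54 and 8.96 in CDP (-4.80, SE 0.11, adjusted p = 9.87e-12), and Gstm1, a glutathione transferase of a family with similar members, read 2601 and 2754 in GMP and 102 and 155 in CDP (-4.10, SE 0.15, adjusted p = 9.56e-10). Nkg7, a granule membrane protein known from killer cells, read 1790.1 and 1852 in GMP and 122 and 149.7 in CDP (-3.47, SE 0.13, adjusted p = 8.99e-10), and Trem3 read 665 and 603 in GMP and 19.8 and 21.4 in CDP (-3.66, SE 0.10). Vat1 (751 and 794 in GMP and 29.7 and 29.7 in CDP, -3.70, SE 0.10) and Rgcc (1160.0 and 1004 in GMP and 53.3 and 55.1 in CDP, -3.69, SE 0.13) were lower, with CDP also below CMP for both. Mt1, metallothionein, read 1645 and 2009 in GMP and 108 and 119 in CDP (-3.67, SE 0.16) and 1186 and 790.1 in CMP, and its other probe set gave -0.30.

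Markers of cells outside either population were examined beside these results. Erythroid markers were lower in CDP at 8 of 11, and the summed intensity of the list was 2876 to 5381 on the GMP arrays and 204 to 275.2 on the CDP arrays. Car1, carbonic anhydrase 1, read 967 and 1825 in GMP and 10.8 and 22.0 in CDP (-4.82, SE 0.22, adjusted p = 5.94e-09), Car2 read 1384 and 2272 in GMP and 112 and 151 in CDP (-3.48, SE 0.20, adjusted p = 3.64e-08), Ermap, a red cell membrane protein, read 204 and 526 in GMP and 6.37 and 12.3 in CDP (-3.14, SE 0.34), and Klf1, the erythroid factor, read 108 and 250.2 in GMP and 4.75 and 12.1 in CDP (-2.31, SE 0.30). GMP replicate 2 was above GMP replicate 1 for 10 of the 11 markers, and CMP arrays read 1895 and 1529.8 for Car1. The globin gene Hba-a1 and Alas2, which define later red cells, read at most 6.10 on the 4 arrays. With robust variance estimates 4 erythroid markers were called in place of 8. Mast cell, basophil and eosinophil markers summed to 1136 to 1352 in GMP and 187.7 to 221.7 in CDP, with 8 of 14 lower in CDP. Hdc, histidine decarboxylase, read 486 and 523 in GMP and 6.30 and 9.0 in CDP (-3.76, SE 0.095, adjusted p = 3.74e-11), and Cpa3, a mast cell carboxypeptidase, read 155 and 256 in GMP and 16.9 and 21.9 in CDP (-2.18, SE 0.16). The defining genes Fcer1a, Epx and Mcpt4 read below 10 on all 4 arrays. The part of other cells, in a GMP gate for which no lineage exclusion is listed, was not tested.

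B cell markers summed to 392.6 to 432.1 in GMP and 530.2 to 628.4 in CDP, and 2 of 12 were higher, near the 16% of all genes. Cd22, an inhibitory Siglec, read 5.27 and 3.33 in GMP and 149 and 120.3 in CDP (2.20, SE 0.11, adjusted p = 1.41e-08) and 584 and 631 in pre-cDC, while Cd79a and Ms4a1 read below 10 on all 4 arrays and Pax5 was not called. Cd79b was called at 0.37 (SE 0.12); after quantile normalization 1 B cell marker was higher and 1 lower. The Cd79b call was lost without any one of the 4 arrays (0.31 to 0.43) and with quantile normalization (0.22). T and NK cell markers summed to 71.22 to 73.73 in GMP and 326 to 350.4 in CDP, and 2 of 13 were higher, near the 16% of all genes. Klrd1 (CD94) made up most of the CDP sum. It read 6.23 and 6.05 in GMP, 244 and 267 in CDP (2.91, SE 0.11, adjusted p = 1.54e-09) and 1439 and 1709 in pre-cDC, while Cd3e, Cd3g, Cd3d and Ncr1 read below 10. Megakaryocyte markers were dim, with Pf4 (-0.50, SE 0.092), Itga2b and Gp5 (-0.28, SE 0.079) lower in CDP and Vwf (0.26, SE 0.073) and Treml1 (0.30, SE 0.083) higher. The Gp5 call was lost without CDP replicate 2, GMP replicate 1 or GMP replicate 2 (-0.30 to -0.24). The Vwf call was lost without any one of the 4 arrays (0.23 to 0.30). The Treml1 call was lost without CDP replicate 2, GMP replicate 1 or GMP replicate 2 (0.24 to 0.31). Macrophage and stroma markers summed to 327.8 to 353 in GMP and 316.5 to 353 in CDP, with the complement genes C1qa, C1qb and C1qc below 8 and Vcam1 lower in CDP at 156 and 174 in GMP and 6.12 and 4.15 in CDP (-2.41, SE 0.087). Pecam1 was higher at 1.16 (SE 0.14). Xist read 2133 and 2342 in GMP and 3868 and 4568 in CDP (0.90, SE 0.092), and the 3 Y-linked genes measured read below 7 on all 4 arrays.

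**Figure D5:**
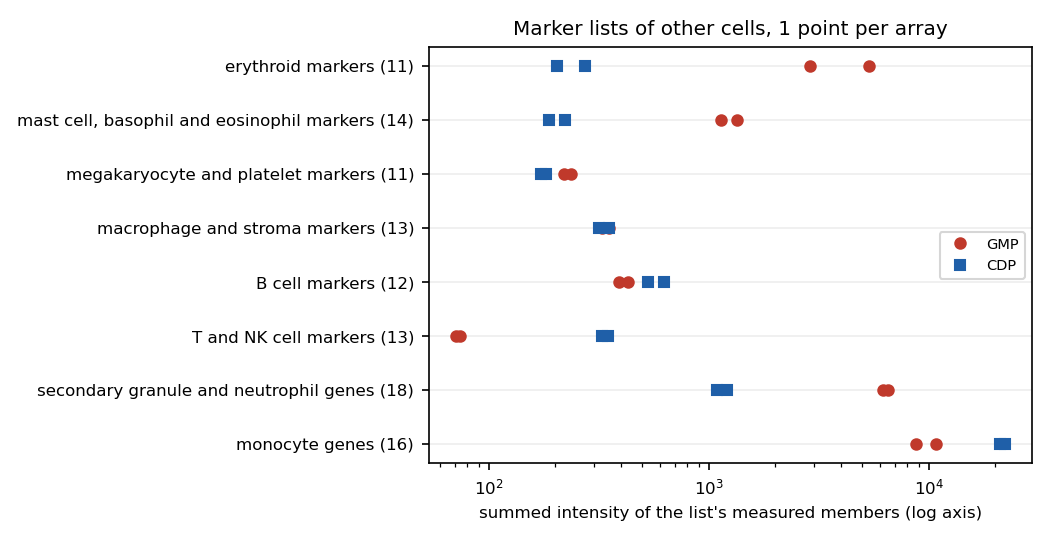
Summed intensity (log axis) of the measured members of 8 marker lists, 1 point per array, for GMP and CDP. Erythroid sums are 2876 to 5381 in GMP and 204 to 275.2 in CDP, and the macrophage and stroma sums overlap.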

How the data were processed

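RNA of sorted mouse cells was hybridised to 3' expression arrays with 45037 probe sets, after labelling with a 3' in vitro transcription kit per the labels' protocols. The deposited values are linear intensities, 1 per probe set and array; their normalization is not stated in the labels or headers used. The 8 bone marrow progenitor arrays share a scale (median intensity 15.95 to 17.44), and the other 7 arrays were not compared with them. Values were taken as log2(intensity + 32). Of the probe sets 34945 carry 1 gene symbol, 932 several and 9160 none. For each of 18193 genes, the probe set of highest mean log2 value across the 15 arrays stood for the gene.

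limma 3.58.1 in R 4.3.3 (with version 1.17.8 of data.table; figures in Python 3.11.15 with matplotlib 3.10.9) fitted 8 arrays in 4 groups, with an intensity trend in the variance and 4 residual degrees of freedom (12.6 after moderation). The CDP minus GMP contrast was tested two-sided and adjusted by Benjamini-Hochberg over all 18193 genes, with a threshold of 0.05. The fit was tested on simulated data with known changes. It recovered 35 of 66 changes of 0.5 log2, 65 of 67 of 1 and 67 of 67 of 2. Far fewer genes were changed there than were called here, so the simulation does not set the error rate of these calls. The number of arrays limits the precision.

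The text names the 15 largest rises and 15 largest falls among called genes with no overlap of arrays, provided the brighter of the groups exceeded the median probe set. It also names the gate and marker genes and the called members of largest difference in 49 gene lists, of whose 827 symbols 755 were measured; further members were named by their role after their values were seen. A gene can sit in several lists. The members and lists were chosen with earlier results of these data known. Promoters came from RefSeq (GRCm38.p6). Alternatives covered the added constant, a filter on low values, scaling, the arrays in the fit, the replicate numbers, the choice of probe set, the variance model and each array left out.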

Additional observations from a re-analysis of the deposited data

Results flagged for a closer look

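The 10092 probe sets without a single gene symbol stayed out of the comparison by gene and were fitted separately, and they carried a difference as well. In CDP against GMP 1783 of them were called by limma at an adjusted p of at most 0.05, 1460 higher in CDP and 323 lower. The count was 1036 without CDP replicate 2, 848 without GMP replicate 1 and 932 without GMP replicate 2.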

How the results depend on the processing

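The count of 5115 genes lay between 4879 and 5366 under the alternatives that kept all 4 arrays and 1 probe set or 1 mean per gene, and between 3510 and 4349 with an array left out. With an array left out, genes higher in CDP numbered 1897 to 2471 and genes lower in CDP 1389 to 1878, and probe sets without a single gene symbol 848 to 1803. Testing every probe set with 1 gene symbol on its own gave 8986 calls of 34945. The share of calls higher in CDP was 41.1% after quantile normalization and 51.9% after median centring, against 56.9%; the cause was not tested. Arrays of the same replicate number deviated together little (correlation of deviations 0.0956 for CDP and GMP, -0.0205 to 0.181 for all group pairs), so the numbers were not taken to pair them; with the number as a replicate block 5360 genes were called, 3073 higher and 2287 lower, 5068 of them shared with the 5115. Among the named genes the block added calls for Hspa1a (0.89), Pgls (0.31) and Taldo1 (-0.25) and lost Rara (0.28). The mean of the probe sets turned H2-D1 from -0.21 to 0.017 with its call lost. A probe set chosen by its linear mean, an alternative added after seeing the data, gave 5090 calls. Where a left-out array leaves 1 array in a group, that array is assumed to vary like the other groups. Dim genes limit what can be read, since the added 32 shrinks their differences.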
